A study of Rattus norvegicus with 15 samples.

Results

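The interval described here is the stretch of rat chromosome 20 from 1000000 to 6000000 in the rn4 assembly, which by general knowledge spans the rat major histocompatibility complex, called RT1. Its members are the 1755 array probes placed there, of 172669 on the array. Probes no further than 500 bp from the next one formed 207 runs, and the 188 runs with at least 3 probes were analysed, of 16782 such runs on the whole array. The rest of chromosome 20, with 2671 probes and 300 such runs, served for comparison. Runs are numbered 1 to 188 from the low end of the interval. The rule that picked them used position only, though the interval was chosen with earlier results of these data known. The borders fell within stretches of like level. The first run inside, at 1102601 to 1104341, had a log2 ratio of -1.37 (mean of 15 arrays) and the last run before the border, at 855365 to 857033, one of -1.32. At the other border the last run inside, at 5963635 to 5965353, and the next run outside, at 6033285 to 6033674, both had 0.31.

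The major histocompatibility complex is the densest cluster of immune genes in mammals. Its class I genes encode surface proteins that present peptides from inside the cell to CD8+ T cells, its class II genes encode those that present ingested peptides to CD4+ T cells, and its class III genes include complement components and tumour necrosis factor. Its class I and class II genes are unusually variable between animals, and in rats and mice stretches of class I genes lie on both sides of the class II and class III genes. Methylation of cytosine in and near these genes is one of the marks that differ between blood cells with high and low levels of their transcripts. The array files pair no probe with a gene and their assembly was not among the references used here, so runs are given by position and none is assigned to a gene.

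Blood DNA of male Sprague Dawley rats, an outbred stock, was taken at 20 weeks of age and measured by methylated DNA immunoprecipitation (MeDIP), in which an antibody recovers DNA that carries methylated cytosine. There were 5 groups with 3 biological replicates and 3 arrays each. The diabetic rats had received 45 mg/kg intravenous streptozotocin, which destroys insulin-producing cells. One treated group was given Luo-tong formula (LTF) at 2 g/kg per day with 1.5 IU of insulin per day, one was given another Chinese formula (its dose, and whether insulin came with it, are not stated in the labels), and one was given calcium dobesilate (CaD) at 0.25 g/kg per day with 1.5 IU of insulin per day. The diabetic retinopathy model (DR model) received streptozotocin and distilled water, and the control rats received citrate buffer in place of streptozotocin, and distilled water. Insulin came with LTF and with CaD and not with the DR model, so the contribution of insulin and that of LTF or CaD cannot be told apart. Blood is a mixture of cell types, and a change in methylation within a cell type and a change in the share of cell types cannot be told apart in these bulk samples.

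Each value below is a log2 ratio of MeDIP to input signal, averaged over the probes of a run and set so that the median probe of each array is 0. The arrays agreed closely on the interval, with correlations between pairs of arrays of 0.914 to 0.986 across its 188 runs. The MeDIP signal was well above background at 83.7% to 93.7% of the interval's probes and the input signal at 93.2% to 97.3%. Between 3 and 111 of its spots per array were marked as outliers and left out, with 102 to 111 of them on each LTF array and at most 61 on any other. The arrays were scanned on 3 days in 6 scans. The LTF arrays had scan 4 to themselves, so LTF and that scan cannot be told apart. Single arrays made up scan 1 (DR model replicate 2) and scan 2 (control replicate 1), scan 3 held CaD replicate 3 with the other formula, scan 5 held DR model replicate 1 with control replicates 2 and 3, and in scan 6 DR model replicate 3 was read beside CaD replicates 1 and 2.

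The interval was not uniform. Its log2 ratios ran from -1.71 to 1.14 with a median of 0.13, and 110 of its 188 runs (58.5%) lay above 0. On the rest of chromosome 20 the median was 0.08 and 55.3% of runs lay above 0, and on the whole array the median was -0.035 and the share 47.0%. The low end of the interval had the lowest ratios, and the 500 kb windows beyond 3000000 averaged above 0.

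The first 500 kb window, 1000000 to 1500000, held 20 runs with a mean of -0.97. In LTF rats its mean log2 ratio was -0.87, -0.85 and -0.88, in rats given the other formula -0.99, -0.88 and -0.87, in CaD rats -0.88, -0.79 and -0.94, in DR model rats -1.13, -1.104 and -0.85, and in control rats -1.08, -1.08 and -1.30. The control arrays were the lowest group on average and the 3 treated groups the highest, with the DR model arrays spread over both ranges. This window also had the longest probes of the interval, 54.1 nucleotides on average, where the other 9 windows had averages from 45.9 to just under 50.

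The last window, 5500000 to 6000000, held 8 runs with a mean of 0.55 and probes of 45.9 nucleotides. Its mean was 0.46, 0.54 and 0.47 in LTF rats, 0.62, 0.49 and 0.50 in rats given the other formula, 0.53, 0.50 and 0.52 in CaD rats, 0.58, 0.68 and 0.54 in DR model rats, and 0.55, 0.63 and 0.63 in control rats. Here the order of the group means ran the other way, with LTF lowest (0.49) and the DR model and control highest (0.60 each). Between these ends the window from 2000000 to 2500000 was sparse, with 5 runs, and low at -0.55, the window from 4000000 to 4500000 was high at 0.37, and the window from 4500000 to 5000000 lay near 0 at 0.030.

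**Figure D1:**
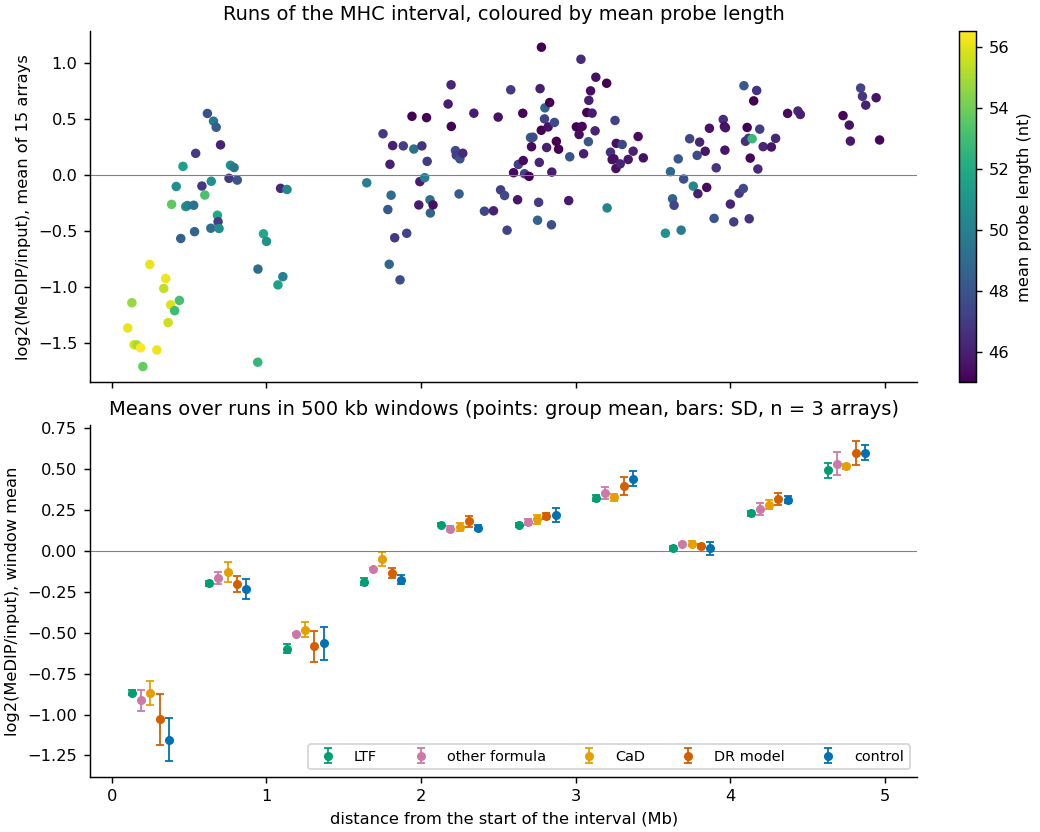
The upper panel plots the log2 ratio of each of the 188 runs (mean of 15 arrays) against its distance from the start of the interval in Mb, with the mean probe length of the run as colour. The lower panel plots the mean over runs in each 500 kb window for the 5 groups (bars, SD over 3 arrays): the first window sits near -0.97 with long probes and the last near 0.55 with short ones.

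The ratio tended to be lower where probes were longer. Across the 188 runs the level had a Spearman correlation of -0.63 with the mean probe length of the run, and across the 300 other runs of the chromosome one of -0.55. These are descriptions across runs that share arrays. Base composition may move with probe length, but no probe sequence was at hand and this was not tested. The 1070 interval probes of 45 nucleotides averaged 0.32, those of 46 to 49 nucleotides -0.17, those of 50 to 54 nucleotides -0.49, and those of 55 to 60 nucleotides -0.91.

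The 5 highest runs lay between 3193075 and 4200248, and the 5 lowest between 1161396 and 1944369. The highest was run 100, at 3777906 to 3778363 with 3 probes of 45 nucleotides. Run 100 measured 0.99, 1.11 and 1.11 in LTF, 1.08, 0.92 and 0.90 with the other formula, 1.099, 1.07 and 0.87 in CaD, 1.49, 1.34 and 1.09 in the DR model, and 1.17, 1.34 and 1.53 in control. The 3 control arrays lay above the 9 treated arrays, and the DR model arrays spread over both ranges. Run 115 (4033210 to 4033990), run 124 (4128923 to 4130683), run 125 (4199539 to 4200248) and run 70 (3193075 to 3194744) followed, at 1.03, 0.87, 0.82 and 0.81.

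The lowest was run 6, at 1200352 to 1202039 with 11 probes. It measured -1.36, -1.43 and -1.58 in LTF, -1.75, -1.77 and -1.60 with the other formula, -1.60, -1.53 and -1.77 in CaD, -2.06, -1.83 and -1.55 in the DR model, and -2.04, -1.84 and -1.95 in control. The LTF and control arrays of run 6 did not overlap. Run 39 (1943997 to 1944369), run 8 (1290849 to 1292523), run 5 (1185619 to 1187355) and run 4 (1161396 to 1163188) were next, at -1.67, -1.56, -1.54 and -1.52, and their probes averaged 52.7 to 56.5 nucleotides. A low ratio in these runs goes with long probes and is not read here as low methylation.

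Averages hid strong differences between neighbouring probes. Run 95, at 3751574 to 3754717, had the deepest central dip, with a centre minus outer difference of -1.92 (from -2.44 to -1.45 over the 15 arrays). Its 4 probes from 3752538 to 3753067, of 53, 45, 51 and 58 nucleotides, averaged between -2.84 and -1.49. The probe ending at 3752424 just before them, of 45 nucleotides, averaged 0.56. On the other side the next probe, 3753267 to 3753311 (45 nucleotides), averaged -0.67. A level of 0.71 was reached only at the one starting at 3754350 (46 nucleotides). The opposite shape was strongest in run 66, at 3057108 to 3058258, where that difference was 1.64 (1.34 to 2.36 over arrays). There the probe at 3057827 to 3057871 (45 nucleotides) averaged 1.53 and the next, at 3058043 to 3058099 (57 nucleotides), -1.51. The sign of both centre minus outer differences was shared by the 15 arrays. Probe length differed within both runs, and its part in these shapes was not tested. Run 160, with 21 probes at 4997456 to 5001961 the longest run, went up and down several times, with probe means from -1.82 to 1.08. Among the 158 interval runs with at least 7 probes the centre lay below the outer parts in 82 (51.9%), against 147 of 261 (56.3%) on the rest of the chromosome, so dips and peaks were about equally common. Runs 95 and 66 are shown for their shape, and were picked after the values were seen.

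**Figure D2:**
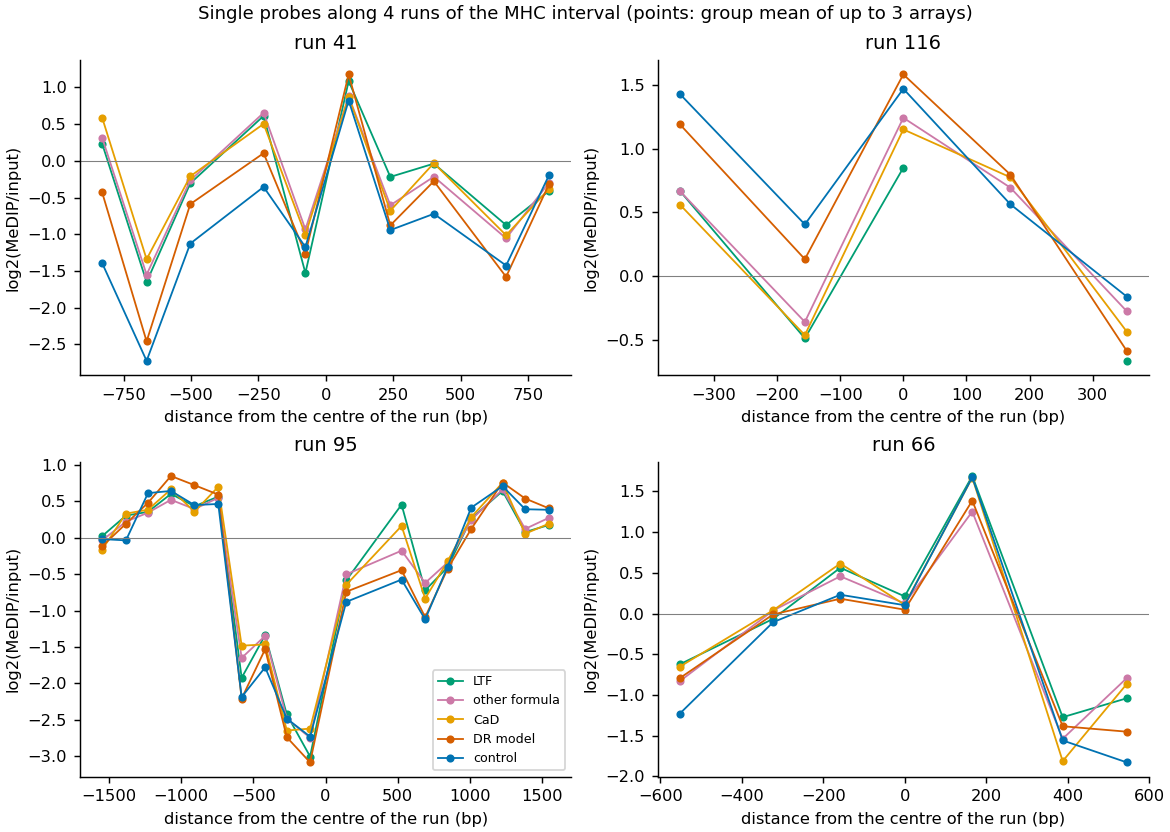
Mean log2 ratio of single probes by group (up to 3 arrays each) against the distance of the probe from the centre of its run in bp, for runs 41, 116, 95 and 66. Over the 15 arrays run 95 averages -2.84 near its centre and run 66 peaks at 1.53; in run 41 the groups part at the left end, and the LTF line of run 116 breaks where 1 probe was an outlier on the 3 LTF arrays.

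Whether the interval as a whole stood apart from the rest of its chromosome was asked array by array. The mean over interval runs minus the mean over the other runs of chromosome 20 was 0.045 ± 0.022 (SD, n = 15), and it was above 0 on 15 of 15 arrays, from 0.0021 to 0.067 (exact sign-flip permutation test, two-sided p = 6.1e-05, the smallest that 15 arrays can give). The 15 arrays read the same probes, so the sign-flip p-values here measure agreement between arrays and not the spread between runs. The difference was small beside the interquartile range of the interval's runs, which was 0.56 to 0.80 on the 15 arrays. It also depended on the mix of probes and on the unit averaged. As a mean over single probes it was above 0 on 13 of 15 arrays, from -0.014 to 0.054. When single probes were averaged and the rest of the chromosome was weighted to the probe lengths of the interval, the difference turned to -0.058. It was then above 0 on 0 of 15 arrays (exact sign-flip permutation test, p = 6.1e-05). Over runs it was -0.014 after loess normalization within arrays (exact p = 0.049) and -0.012 with dim probes left out (exact p = 0.045). Over the inner 2000000 to 5000000 alone it was 0.164 (exact p = 6.1e-05). That part leaves out the low windows below 2000000 (-0.97 and -0.19) and the high ones above 5000000 (0.28 and 0.55).

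Within single length classes the interval was not above the rest of the chromosome on balance. For 45-nucleotide probes the interval was lower by 0.046, on each of the 15 arrays, at 0.32 against 0.36. For probes of 50 to 54 nucleotides it was lower by 0.20 on each of the 15 arrays, at -0.49 against -0.29. Probes of 46 to 49 nucleotides differed by 0.0055, with 10 of 15 arrays above 0, and probes of 55 to 60 nucleotides by -0.039, with 3 of 15 above 0.

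**Figure D3:**
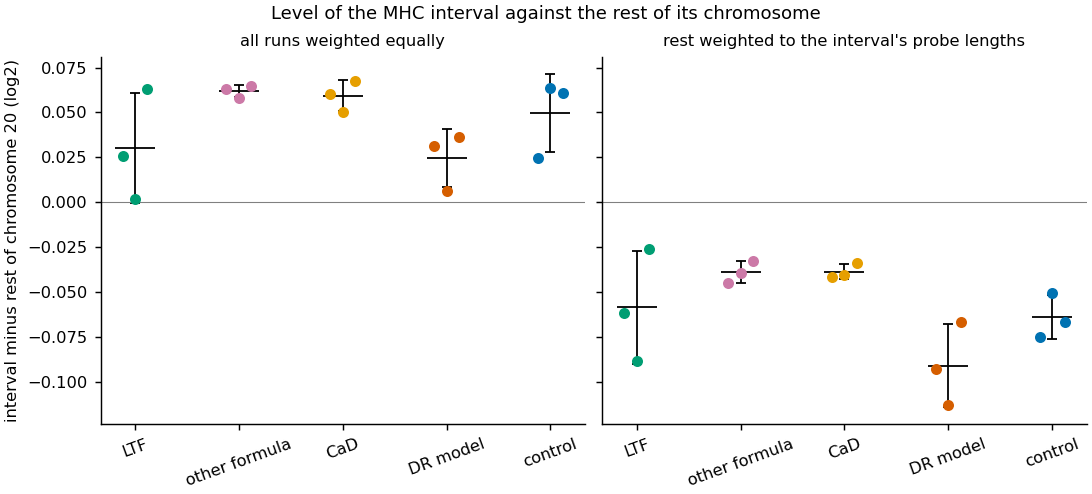
Mean log2 ratio of the interval minus that of the rest of chromosome 20 on each array (points), with group mean and SD (black, n = 3). With runs weighted equally (left) the 15 arrays lie between 0.0021 and 0.067. With single probes averaged and the rest weighted to the probe lengths of the interval (right) they lie between -0.113 and -0.026.

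The 5 groups differed little in this measure. It was 0.026, 0.0021 and 0.063 in LTF, 0.063, 0.058 and 0.065 with the other formula, 0.060, 0.050 and 0.067 in CaD, 0.032, 0.0063 and 0.037 in the DR model, and 0.025, 0.064 and 0.061 in control. The CaD and other-formula arrays all lay above the DR model arrays, and the LTF and control arrays overlapped with them. Against the DR model, CaD rats differed by 0.035 and rats on the other formula by 0.037 (exact permutation p = 0.1 each, the smallest that 3 against 3 arrays allow), and LTF rats by 0.0055 (exact permutation p = 1). The DR model differed from control by -0.025 (exact permutation p = 0.3). The 4 diabetic groups together differed from control by -0.0057 (exact permutation p = 0.723) and the 3 treated groups together from the DR model by 0.026 (exact permutation p = 0.105). After Benjamini-Hochberg adjustment over these 6 comparisons the smallest value was 0.209. The shift of the treated groups against the DR model reached 0.046 with single probes averaged and the probe lengths matched (exact permutation p = 0.0091, not adjusted). This length-matched shift was added after seeing the data.

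Single runs were then compared with limma on the means of all 16782 runs, with Benjamini-Hochberg adjustment over all of them and a threshold of 0.05. Between the DR model and control no interval run was called, and none of the array (0%). An unadjusted p under 0.05 was reached by 15 of 188 runs, against 12.7% of all runs, and the 3 DR model arrays lay wholly above or wholly below the 3 control arrays in 18 interval runs (9.57%), against 11.5% of all runs. Of these, 10 were higher in the DR model (background, the share of all runs, 8.47%) and 8 lower (background 3.04%). Run 23, at 1542116 to 1543229, came nearest to a call. It measured 0.09, 0.07 and 0.06 in the DR model and 0.29, 0.31 and 0.26 in control, so the groups did not overlap. The difference was -0.22 ± 0.06 (SE, limma adjusted p = 0.149). The largest separated difference upwards was in run 59, at 2952459 to 2953715, with 0.42, 0.39 and 0.28 in the DR model against 0.26, 0.18 and -0.07 in control (0.24 ± 0.08, SE, limma adjusted p = 0.244). Run 92, at 3706781 to 3708470, was among the separated runs downwards, with 0.20, 0.34 and 0.22 in the DR model against 0.49, 0.36 and 0.63 in control. It differed by -0.23 (limma adjusted p = 0.236), and the LTF arrays (0.47, 0.50 and 0.49) lay within the control range while those of CaD (0.28, 0.11 and 0.17) did not.

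Neither CaD nor the other formula gave a called run against the DR model, in the interval or on the array (0% for both). For CaD 27 interval runs had an unadjusted limma p under 0.05 (14.4%, against 15% of all runs). The CaD arrays separated from the DR model arrays in 31 (16.5%, against 16.4%), 14 upwards (background 6.65%) and 17 downwards (background 9.79%). For the other formula 27 had an unadjusted limma p under 0.05 (14.4%, against 15.1% of all runs), and 44 separated (23.4%, against 18.6%), 18 upwards (background 5.57%) and 26 downwards (background 13%). The smallest p for CaD was in run 82, at 3539173 to 3540672, which measured 0.10, 0.03 and -0.0021 in CaD against -0.30, -0.35 and -0.28 in the DR model. That is a difference of 0.35 ± 0.07 (SE, limma adjusted p = 0.113). In the other groups of run 82 LTF measured -0.40, -0.28 and -0.30, the other formula -0.15, -0.12 and -0.21, and control -0.26, -0.23 and -0.01, so that the highest control array lay next to the lowest CaD array. Run 168, at 5120763 to 5122308, was also separated for CaD, with -0.25, -0.25 and -0.38 in CaD against -0.75, -0.46 and -0.44 in the DR model (0.26, limma adjusted p = 0.218).

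For the other formula the separated run with the smallest p was run 41, described below (0.41, limma adjusted p = 0.103). With the authors' deposited table run 41 was called (0.23, limma adjusted p = 0.034). Run 154, at 4893956 to 4894891, measured -0.22, -0.25 and -0.26 with the other formula against -0.64, -0.43 and -0.50 in the DR model (0.28, limma adjusted p = 0.202). Run 70, one of the highest runs, measured 0.58, 0.75 and 0.71 with the other formula against 0.94, 1.04 and 0.78 in the DR model (-0.24, limma adjusted p = 0.171), and 0.91, 0.86 and 0.87 in control. In runs 154 and 70 the 3 arrays of either group stood apart, by a small margin in run 70. The counts of calls for CaD and the other formula hinged on DR model replicate 3, since without it 14 interval runs were called for CaD (8.51% of all runs in that fit) and 13 for the other formula (6.76% of all runs).

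LTF against the DR model gave 2 called interval runs, 1 higher (background 0.238%) and 1 lower (background 0.661%). Together they were 1.06% of its runs, against 0.9% of all runs and 0.333% of those on the rest of the chromosome, which is near the background. An unadjusted limma p under 0.05 was reached by 44 interval runs (23.4%, against 19.4% of all runs). In 41 interval runs the LTF arrays separated from the DR model arrays (21.8%, against 20.3% of all runs), 13 upwards (background 6.71%) and 28 downwards (background 13.6%).

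The lower one was run 116, at 4040890 to 4041642 with 5 probes. It measured 0.18, 0.02 and 0.07 in LTF, 0.39, 0.49 and 0.30 with the other formula, 0.25, 0.37 and 0.33 in CaD, 0.54, 0.78 and 0.54 in the DR model, and 0.69, 0.83 and 0.70 in control. The LTF arrays were the lowest 3 of 15, and the treated arrays did not overlap with the DR model or control arrays. LTF was lower than the DR model by 0.53 ± 0.08 (log2, SE, limma adjusted p = 0.025), the 3 treated groups by 0.36 (limma adjusted p = 0.026), and the 4 diabetic groups were lower than control by 0.39 (limma adjusted p = 0.0042). These 3 comparisons share arrays. The DR model itself differed from control by -0.12 (limma adjusted p = 0.557).

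The change in run 116 was not even along its probes. At the probe 4040890 to 4040934 the means were 0.67 in LTF, 0.67 with the other formula, 0.56 in CaD, 1.19 in the DR model and 1.43 in control. At the next, 4041088 to 4041132, they were -0.49, -0.36 and -0.46 in LTF, other-formula and CaD rats, against 0.13 in the DR model and 0.41 in control. At the probe in the middle, 4041244 to 4041288, they were 0.85, 1.24 and 1.15, against 1.58 in the DR model and 1.47 in control. The treated groups lay below the DR model and control at these 3 probes, whereas the last probe, 4041598 to 4041642, ran from -0.67 in LTF to -0.16 in control with the DR model at -0.59. The probe at 4041413 to 4041458 was an outlier spot on the 3 LTF arrays and entered the other 4 groups only, at 0.56 to 0.80. With each probe's own mean removed before averaging, so that a missing probe moves nothing, LTF was lower by 0.47 (limma adjusted p = 0.037).

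The higher one was run 57, at 2906798 to 2907553 with 4 probes. It measured -0.31, -0.35 and -0.06 in LTF, -0.47, -0.44 and -0.50 with the other formula, -0.54, -0.49 and -0.50 in CaD, -0.60, -0.70 and -0.63 in the DR model, and -0.58, -0.78 and -0.86 in control. The LTF arrays were above every array of the other 4 groups. The difference from the DR model was 0.40 ± 0.08 (SE, limma adjusted p = 0.039). Its probe at 2907141 to 2907187, at -1.53 in the DR model, was an outlier spot on 2 of 3 LTF arrays, and with each probe's mean removed the difference was 0.24 (limma adjusted p = 0.129). The call of run 116 was lost in 5 of 15 fits that each left out 1 array (limma adjusted p up to 0.081), namely those without an LTF array or without DR model replicate 1 or 2, and that of run 57 in 11 of 15 (limma adjusted p up to 0.112). Without DR model replicate 3 LTF had 16 called interval runs, with 7.79% of all runs called in that fit. For run 116 the difference was -0.33 with loess (limma adjusted p = 0.051) and -0.18 with the authors' table (limma adjusted p = 0.064). Neither run passed with scan as a random block (limma adjusted p = 0.372 for run 116 and 0.451 for run 57).

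The leading runs that were not called for LTF were runs 88, 155 and 37. Run 88, at 3656674 to 3658199 with 9 probes, measured 0.41, 0.50 and 0.43 in LTF, 0.49, 0.50 and 0.52 with the other formula, 0.56, 0.64 and 0.54 in CaD, 0.79, 0.71 and 0.61 in the DR model, and 0.48, 0.57 and 0.53 in control. Here the DR model stood above control without overlap (0.18, limma adjusted p = 0.263). LTF stood below the DR model without overlap (-0.26, limma adjusted p = 0.063), within or below the control range. The input signal of run 88, relative to each probe's median over arrays, was 0.48, 0.63 and 0.26 in LTF. It was 0.05, -0.75 and -0.11 in the DR model and -0.83, 0.01 and -0.05 in control. What the input contributed to the ratio differences was not tested. Run 155, at 4907469 to 4909029, measured -0.11, -0.10 and -0.16 in LTF against 0.13, 0.37 and 0.18 in the DR model (-0.35, limma adjusted p = 0.067), and the LTF arrays were the lowest 3 of 15. Run 37, at 1790436 to 1791582, measured 0.20, 0.24 and 0.17 in LTF against 0.04, -0.15 and -0.03 in the DR model (0.25, limma adjusted p = 0.108), and did not overlap either.

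Taking the 4 diabetic groups together against control, 12 interval runs were called (6.38%, against 8.71% of all runs and 9.67% of those on the rest of the chromosome). Of these 8 were higher (background 6.35%) and 4 lower (background 2.36%), and 52 interval runs had an unadjusted limma p under 0.05 (27.7%, against 27.9% of all runs). The share called in the interval was below that of the array. Leaving out 1 array at a time gave counts from 2 (control replicate 3 left out, 1.63% of all runs called) to 24 (DR model replicate 2 left out, 15.2% of all runs). With scan as a random block 2 interval runs were called (1.69% of all runs): run 41 (limma adjusted p = 0.019) and run 116 (limma adjusted p = 0.022). Only 4 runs had all 12 diabetic arrays on one side of the 3 control arrays (2.13%, against 3.51% of all runs), 3 higher (background 2.54%) and 1 lower (background 0.965%), of which runs 73 and 74 were called.

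Run 41, at 1980183 to 1981887 with 10 probes, had the smallest adjusted p. It measured -0.36, -0.29 and -0.37 in LTF, -0.36, -0.27 and -0.28 with the other formula, -0.20, -0.35 and -0.34 in CaD, -0.82, -0.93 and -0.40 in the DR model, and -1.04, -0.92 and -0.93 in control. The 9 treated arrays were higher than the DR model and control arrays, and DR model replicates 1 and 2 lay beside control while replicate 3 lay beside the treated arrays. The diabetic groups were higher than control by 0.55 ± 0.08 (SE, limma adjusted p = 0.0030) and the treated groups higher than the DR model by 0.40 ± 0.08 (SE, limma adjusted p = 0.034), while the DR model differed from control by 0.25 (limma adjusted p = 0.333). Within scan 5, where 1 diabetic array (DR model replicate 1) meets 2 control arrays, the difference from control was 0.11. Within scan 6, which has no control, CaD differed from the 1 DR model array by 0.12. With 1 array on a side, neither difference can decide whether scan plays a part. A probe that was an outlier spot on 6 of 15 arrays moved little here, since with each probe's mean removed the differences were 0.52 (limma adjusted p = 0.0019) and 0.36 (limma adjusted p = 0.028).

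The group means of run 41 differed most at the 2 probes of its left end. At the probe 1980183 to 1980227 the means were 0.24 ± 0.50 in LTF, 0.32 ± 0.20 with the other formula, 0.59 ± 0.60 in CaD, -0.43 ± 0.71 in the DR model and -1.39 ± 0.31 in control (SD, n = 3 each). At the next, 1980343 to 1980397, they were -1.65, -1.55, -1.34, -2.46 and -2.72 in the same order. The last probe, 1981839 to 1981887, ran from -0.41 in LTF to -0.19 in control and did not follow the rest. The neighbouring probes 1981091 to 1981148 and 1981250 to 1981298 differed from each other by more than 1 in every group mean, which is more than the groups differed at either.

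**Figure D4:**
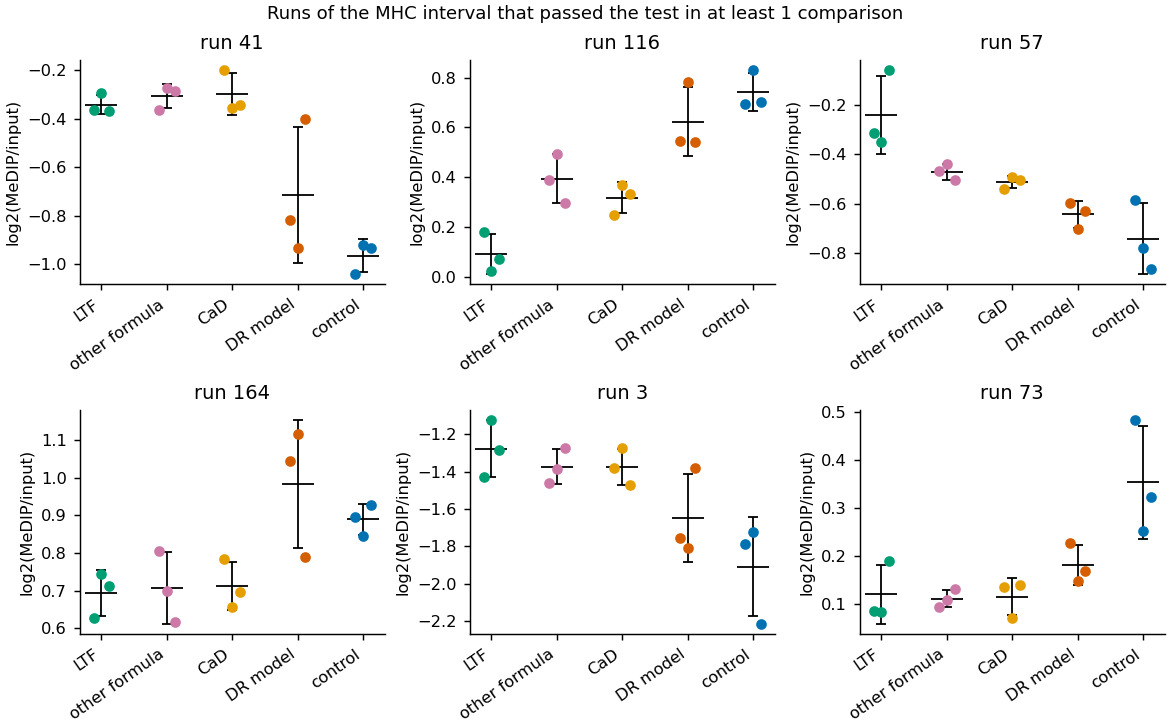
Log2 ratio of 6 called runs on each array (points; line and bar, group mean and SD, n = 3): runs 41, 116, 57, 164, 3 and 73. In the 6 runs the 9 treated arrays lie apart from the control arrays, and in runs 41, 164 and 3 DR model replicate 3 lies nearest the treated arrays.

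Of the other higher runs, 5 lay below 2000000, in the low-ratio end, and runs 57 and 74 further along. Run 3, at 1143225 to 1145010, measured -1.43, -1.12 and -1.28 in LTF, -1.46, -1.39 and -1.27 with the other formula, -1.38, -1.28 and -1.47 in CaD, -1.75, -1.81 and -1.38 in the DR model, and -1.79, -1.73 and -2.21 in control. The diabetic arrays were higher than control by 0.49 (limma adjusted p = 0.012), but DR model replicates 1 and 2 lay within the control range, and control replicate 3 was the lowest array. Without control replicate 3 the difference was 0.34 (limma adjusted p = 0.087). Run 10 (1348531 to 1350180), run 7 (1245072 to 1246734), run 6 (1200352 to 1202039), run 40 (1945022 to 1945697) and run 57 were higher by 0.33, 0.38, 0.29, 0.28 and 0.28 (limma adjusted p from 0.016 to 0.047). Run 74, at 3244694 to 3246460, was higher by 0.21 (limma adjusted p = 0.032), with the 12 diabetic arrays above the 3 control arrays. Of its 8 outlier spots 7 were on LTF arrays, and with loess the difference was 0.079 (limma adjusted p = 0.319). Run 64, at 3034487 to 3036212, and run 177, at 5291413 to 5292833, were separated in the same direction without a call. Run 64 was 0.46 to 0.74 on the diabetic arrays against 0.36, 0.39 and 0.39 in control (0.17, limma adjusted p = 0.071), and run 177 differed by 0.11 (limma adjusted p = 0.202).

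The 4 lower runs had levels above 0. Besides run 116, run 73, at 3226803 to 3228504 with 11 probes, measured 0.08, 0.08 and 0.19 in LTF, 0.09, 0.11 and 0.13 with the other formula, 0.13, 0.07 and 0.14 in CaD, 0.23, 0.15 and 0.17 in the DR model, and 0.48, 0.25 and 0.32 in control. The 12 diabetic arrays lay below the 3 control arrays, and the difference was -0.22 (limma adjusted p = 0.020). Without control replicate 1 it was -0.16 (limma adjusted p = 0.075). Run 120 (4084153 to 4084860) and run 140 (4611425 to 4613082) were lower by 0.23 and 0.26 on the log2 scale (limma adjusted p = 0.045 and 0.049). Of 15 fits that each left out 1 array, 11 lost the call of run 120 (limma adjusted p up to 0.183) and 10 that of run 40 (limma adjusted p up to 0.134).

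Direction went with level and with probe length. The 8 higher runs had levels from -1.71 to -0.17 and the 4 lower ones from 0.029 to 0.67, and of the 34 interval runs with probes averaging at least 50 nucleotides 5 were called higher and 0 lower. On the whole array 13.2% of such runs were called higher and 0.936% lower, so the interval's runs were near their background. Across all interval runs, 58 of the 78 with a level below 0 were higher in the diabetic groups than in control (median difference 0.075), against 38 of the 110 with a level above 0 (median -0.055). The spread of ratios within an array moved along with this. The interquartile range over interval runs was 0.66 ± 0.03 in LTF, 0.61 ± 0.04 with the other formula, 0.60 ± 0.04 in CaD, 0.71 ± 0.11 in the DR model and 0.75 ± 0.03 in control (SD, n = 3 each), and on the rest of the chromosome it was 0.67, 0.63, 0.62, 0.74 and 0.81 in the same order. The DR model arrays differed in this, with interval interquartile ranges of 0.80, 0.74 and 0.59 on replicates 1, 2 and 3. Replicates 1 and 2 lay beside control (0.73, 0.75 and 0.78), and replicate 3 lay among the CaD arrays (0.56, 0.60 and 0.64). When quantile normalization gave the arrays the same spread, 5 interval runs were called (3.34% of all runs). Runs 41, 116, 73 and 3 were among them (limma adjusted p = 0.0095, 0.011, 0.035 and 0.042).

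The 2 channels contributed differently from run to run. Each channel was set relative to the median probe of its array and, probe by probe, to the median array. In run 3 the MeDIP signal of the diabetic groups differed from control by -0.013, whereas the input signal differed by -0.45. Runs 6, 7 and 10, in the same first window, had input differences of -0.43, -0.36 and -0.34 beside MeDIP differences of -0.20, -0.04 and -0.11. In these 4 runs the higher ratio went with a lower input signal and not with a higher MeDIP signal. Run 41 differed by 0.33 in the MeDIP signal and by -0.12 in the input signal. Run 116 differed by -0.14 in the MeDIP signal and by 0.29 in the input signal against control, but for LTF against the DR model by -0.38 and 0.071. Of the 12 called runs, 7 differed more in the input than in the MeDIP signal. No test was run on a single channel.

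Treated against DR model rats gave 3 called runs (1.6%, against 2% of all runs), with run 41 higher (background 0.429%) and runs 116 and 164 lower (background 1.57%). An unadjusted limma p under 0.05 was reached by 48 interval runs (25.5%, against 21.7% of all runs). The 9 treated arrays separated from the 3 DR model arrays in 7 interval runs (3.72%, against 5.28%), 4 upwards (background 1.38%) and 3 downwards (background 3.9%). Run 164, at 5086644 to 5088282 with 11 probes, measured 0.63, 0.74 and 0.71 in LTF, 0.81, 0.70 and 0.62 with the other formula, 0.78, 0.66 and 0.70 in CaD, 1.04, 1.12 and 0.79 in the DR model, and 0.90, 0.85 and 0.93 in control. DR model replicates 1 and 2 were the highest arrays, and replicate 3 lay among the treated ones. The treated groups were lower by 0.28 ± 0.07 (log2, SE, limma adjusted p = 0.044), and the difference was largest at the first 3 of its 11 probes. At 5086644 to 5086703 the means were 0.46 in LTF, 0.36 with the other formula and -0.010 in CaD, against 1.05 in the DR model and 0.83 in control. At 5086808 to 5086852 they were 1.57, 1.82 and 1.86, against 2.47 in the DR model and 2.17 in control, and at 5086970 to 5087014 they were 1.95, 1.98 and 1.99, against 2.56 in the DR model and 2.16 in control. Among the separated runs without a call were runs 155 (-0.25), 57 (0.24) and 168 (0.23), with limma adjusted p of 0.073, 0.073 and 0.080. Run 105, at 3831285 to 3831631 with 3 probes, was another, with 0.41 to 0.64 on the treated arrays. It measured 0.83, 0.78 and 0.68 in the DR model (-0.19, limma adjusted p = 0.098). The count of called runs was 31 without DR model replicate 3, where 13.9% of all runs were called, and 0 without DR model replicate 1 or 2, where 0% were. With scan as a random block none of the 3 runs passed (limma adjusted p = 0.133 for run 41, 0.113 for run 116 and 0.187 for run 164), nor did any run of the array.

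The input channel, which is meant to carry unenriched DNA, varied in some runs of the interval. Its range over 15 arrays exceeded 1 (log2) in 33 of 188 interval runs (17.6%), against 13.3% of the runs on the rest of the chromosome and 9.15% on the array. In runs 88, 115, 152, 176 and 187 the arrays read alone, in scans 1 and 2, had the lowest input signal. DR model replicate 2 (scan 1) lay between -0.81 and -0.67 there. For control replicate 1 (scan 2) the range was -0.92 to -0.67, and that array was also lowest in runs 105 (-1.18) and 181 (-0.80). In runs 39, 49 and 71 neither was lowest. Whether scan contributed to the larger share in the interval was not tested. The runs named here were picked after their values were seen. Run 49, at 2784331 to 2786012 with 9 probes, spread most within groups (SD 0.45, rank 26 of 16782 on the array). Its input signal was 0.19, 0.22 and 0.05 in LTF, 0.30, 0.04 and 0.23 with the other formula, -0.39, -1.43 and -0.21 in CaD, -0.07, 0.22 and 0.06 in the DR model, and 0.54, -0.34 and -0.92 in control. CaD replicate 2 and control replicate 3 were the lowest arrays and control replicate 1 the highest, and the LTF, other-formula and DR model arrays lay between -0.07 and 0.30.

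In CaD replicate 2 the input fell furthest at 4 of the 9 probes of run 49. These measured -3.38 (2784331 to 2784375), -2.24 (2785159 to 2785218), -2.82 (2785319 to 2785364) and -2.68 (2785522 to 2785577). The other 5 lay between -0.79 and 0.11, with those at 2784562 to 2784606 and 2785002 to 2785046 at -0.05 and 0.11. This array was the lowest of the 15 at 5 of the 9 probes. Control replicate 3 was lower more evenly, from -1.80 to -0.34 over the 9 probes. The ratio did not follow the input: run 49 measured -0.04 in CaD replicate 2 against -0.26 and -0.23 in the other CaD arrays, so both channels were low together. The next run along, run 50 at 2793095 to 2794739, had -0.60 in CaD replicate 2 and -0.32 in control replicate 3, the run before it, run 48 at 2753330 to 2754688, had -0.04 and -0.26.

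**Figure D5:**
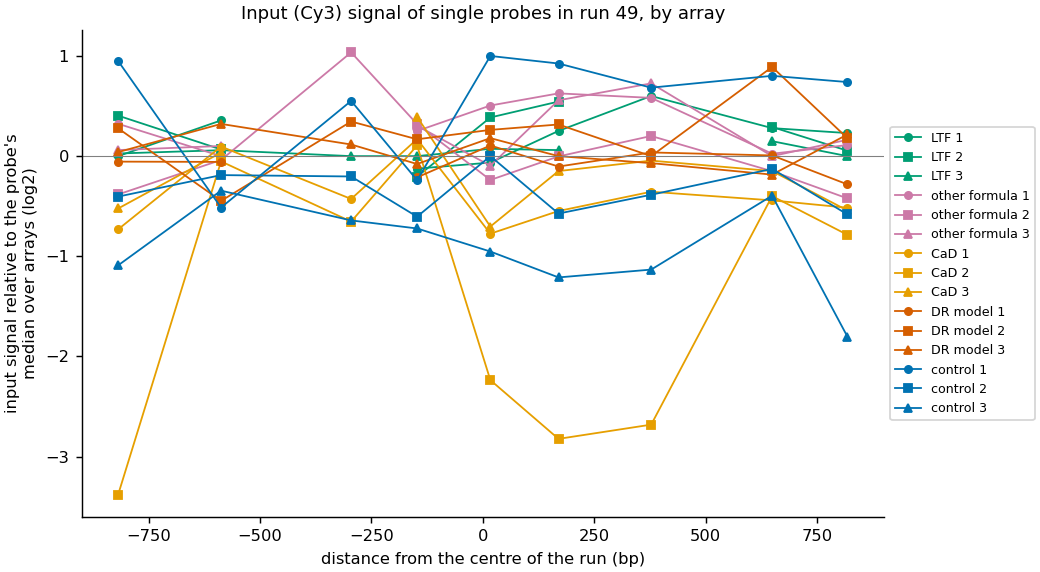
Input (Cy3) signal of the 9 probes of run 49 relative to each probe's median over the arrays (log2), against distance from the centre of the run in bp, with 1 line per array. CaD replicate 2 falls to between -3.38 and -2.24 at 4 probes and lies between -0.79 and 0.11 at the other 5.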

How the data were processed

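DNA from peripheral blood was measured on 15 two-colour Agilent promoter arrays, 1 per rat sample, which per the labels held the immunoprecipitated DNA in Cy5 and the input DNA in Cy3. The deposited intensity values came, per the file headers, from Agilent Feature Extraction 11.0.1.1 on a design placed on rn4 (RGSC 3.4), and the processed intensities had been background-subtracted and dye-normalised by the authors' scanner software. The deposited log10 ratio of each spot equals Cy5 over Cy3 in 99.3% to 99.9% of spots (within 0.001), which sets the direction used here. The authors also deposited a table of log2 values per probe, whose centring and exact scale are not stated; it correlated with the ratios used here at 0.846 to 0.886 per array, had array medians of 0.0083 to 0.045, and served as an alternative.

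The log2 ratio of processed signals was taken per probe, the 6856 control spots and all outlier spots were left out, and each array was centred on its median. Runs joined probes with gaps up to 500 bp and needed 3 probes and a value on the 15 arrays. Their means were tested with limma 3.58.1 in R 4.3.3, with 5 group means, empirical Bayes and Benjamini-Hochberg adjustment over the 16782 runs. Where the report gives an exact test, all regroupings of the arrays within the comparison, or all sign changes, were counted. The script was tested on simulated data. The labels call the 3 samples of a group biological replicates. The number of arrays limits the precision.

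The interval and the lists were chosen with earlier results of these data known. Named runs were, by rule, the 5 highest and 5 lowest in level, the longest and the called runs. For each comparison, up to 3 non-overlapping runs in each direction with the smallest p were also named by rule. Runs 49, 66 and 95, and the runs named for their input signal, were chosen after their values were seen. Alternatives were background correction, normalization, spot filters, run definitions, single probes, scan and scan day as blocks, the replicate number as a block, the authors' table, and leaving out each array. No sequence and no gene is given, as the assembly of the array was not used here.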

Additional observations from a re-analysis of the deposited data

How the results depend on the processing

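The numbers of called interval runs (limma, adjusted p under 0.05) were 2 for LTF against the DR model, 12 for the diabetic groups against control and 3 for the treated groups against the DR model. In the same order, they were 8, 26 and 11 with normexp background correction (2.62%, 12.4% and 3.12% of all runs called), and 5, 20 and 6 with the authors' table (0.923%, 9.93% and 3.43%), which also gave 1 each for CaD and the other formula (0.0834% and 0.626%). Loess gave 1 for LTF (1.11%) and 44 for the diabetic comparison (19.8%), and quantile normalization 5 for the diabetic (3.34%) and 0 for the treated comparison (0.197%). Keeping outlier spots gave 19 and 6 for those comparisons (11.3% and 4.43%), and the 118 runs of the inner part of the interval 6 and 1 (8.71% and 2%). Probes above background on at least 12 arrays gave 5 for LTF (2.4%) and 12 for the treated comparison (6.41%), and gaps up to 1000 bp gave 1 for LTF (0.836%). Among 1494 single probes 15, 30 and 56 were called (1.78%, 2.57% and 4.08% of all probes).

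With scan as a random block 0, 2 and 0 runs were called (0%, 1.69% and 0%), and with scan day as a random block 0, 16 and 3 (0.0119%, 10.3% and 2.02%). Within scan 5, where DR model replicate 1 was the only diabetic array, run 7 turned to -0.0034 and run 120 to 0.037. Within scan 6 the treated comparison held CaD against DR model replicate 3 alone. With a single array on a side, calls within these scans cannot decide anything and are not given. Day 1 likewise held a single control array and a single DR model array. The median difference over interval runs on that day was -0.015 for the diabetic, -0.017 for the treated and -0.033 for the other-formula comparison. Within day 3 the diabetic comparison gave 13 (8.29%) and the treated one 0. Chosen after seeing the data, removing probe means gave 1 for LTF (0.31%), and leaving out the control and DR model arrays with a scan of their own gave 1, 23 and 0 (0.0953%, 13.6% and 0.00596%).

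With the replicate number as a block 1 run was called for LTF (0.161%) and 7 for the diabetic comparison (5.94%). The numbers did not pair the samples: deviations of same-numbered arrays correlated at -0.424 to 0.331, and 2 of 15 arrays correlated best with their own number.

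Leaving out 1 array at a time gave 0 to 0 called runs for the DR model against control, 0 to 14 for CaD, 0 to 13 for the other formula, 0 to 16 for LTF, 2 to 24 for the diabetic and 0 to 31 for the treated comparison. The highest counts of CaD, the other formula, LTF and the treated comparison came without DR model replicate 3. In that fit 8.51%, 6.76%, 7.79% and 13.9% of all runs were called. Where these 4 comparisons had 0 called interval runs, at most 0.0894% of all runs were called. The lowest and highest diabetic counts went with 1.63% and 15.2% of all runs. For the DR model against control at most 0.232% of all runs were called. The interval minus the rest of the chromosome stayed at 0.044 to 0.048. Its shift was -0.038 to -0.016 for the DR model, 0.025 to 0.040 for CaD, 0.028 to 0.043 for the other formula, -0.011 to 0.020 for LTF, -0.018 to 0.0013 for the diabetic and 0.016 to 0.032 for the treated comparison.

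The interval minus the rest turned to -0.014 with loess, -0.012 with bright probes and -0.058 with probe lengths matched over single probes. It was 0.164 in the inner part of the interval, 0.023 with normexp, 0.019 over all runs and 0.028 as a mean over probes. The LTF shift turned to -0.0030 with normexp and -0.014 in the inner part. The diabetic shift turned to 0.0051 with normexp, 0.0025 with quantile normalization, 0.0097 with the authors' table, 0.0084 with bright probes and 0.0073 with lengths matched. The treated shift passed 0.05 (exact permutation p, not adjusted) at 0.036 with loess (p = 0.027), 0.026 with the authors' table (p = 0.023), 0.032 with outliers kept (p = 0.018), 0.031 with bright probes (p = 0.027), 0.035 over all runs (p = 0.032) and 0.046 with lengths matched (p = 0.0091). It also passed without LTF replicate 2 (0.032, exact permutation p = 0.018). The shifts with lengths matched average single probes and were added after seeing the data. The cause of these changes was not tested.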
